A study of Mus musculus with 5 samples.

Results

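The genes described here are 39 genes of glucose and fructose use, of 51912 gene IDs counted in each library: glucose, fructose and lactate carriers, hexokinases, the PFKFB enzymes with Tigar, the enzymes of glycolysis, lactate dehydrogenases, pyruvate dehydrogenase kinases, sorbitol and fructose enzymes, fructose bisphosphatases, the entry enzyme of the pentose phosphate pathway and the hypoxia factor Hif1a. They were taken by gene symbol and all 39 were found. They were chosen by pathway together with their measured differences in CPM between the study's groups, which were known from earlier work on these libraries, so values in that contrast are given as a description and no test is drawn from them. RNA came from 5 male mice, 7 months old, and from tissue labelled dorsolateral prostate, the lobes behind and beside the urethra. Each mouse was Ghr flox/flox, so that Cre can delete the gene of the growth hormone receptor, and SV40 C3(1) T-antigen +/0, a viral oncogene expressed from the C3(1) promoter that gives rise to prostate tumours. All received tamoxifen at 250 mg/kg daily for 5 days, and tissue was collected 1 month after the last dose. The 3 Ghr deletion mice also carried ROSA26 Cre-ERT2 +/0, a tamoxifen-inducible Cre at a locus active in most cell types, so recombination was not targeted to prostate epithelium. The labels of the 2 tamoxifen control mice list no Cre, and the loss of Ghr and the presence of active Cre cannot be told apart. The series calls the libraries of a group biological replicates.

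Glycolysis splits glucose into pyruvate, which is passed to the mitochondria or reduced to lactate and exported. Its pace is set in part at phosphofructokinase, which is switched on by fructose 2,6-bisphosphate. The PFKFB enzymes make and remove that regulator: PFKFB3 mostly makes it, PFKFB4 and the liver and heart forms PFKFB1 and PFKFB2 do both, and TIGAR removes it. Secretory tissues of the male tract also run glucose through sorbitol to fructose, the sugar of seminal fluid, and sorbitol dehydrogenase (Sord) carries out the last step.

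Total counts ranged from 13812454 to 47656212 per library. Levels are CPM, counts scaled to library size with TMM factors, and levels of different genes are set side by side only as TPM, which corrects for gene length. Values are listed in replicate order, the 2 controls first and the 3 deletion libraries after them. Ghr itself stood at 14.4 and 31.3 CPM in the control pair, and at 8.13, 20.9 and 12.1 CPM in the deletion group, so the groups overlapped, and the labels name no deleted exon against which counts over the whole gene could be checked. The prostate markers of the labelled tissue were uneven: Pbsn, a secretory gene of the prostate, was counted 411 times in control replicate 1 but only 1, 4, 8 and 3 times elsewhere. The summed level of 9 prostate secretory markers was 4475 and 139 CPM against 9.25, 29.8 and 161 CPM. In control replicate 2 and deletion replicates 2 and 3 nearly all of it was Mmp7 (126, 27.4 and 159 CPM). In control replicate 1 nearly all of it was Spink1, at 4390 and 11.2 CPM in the control pair and 0.421, 0.0313 and 0.408 CPM in the deletion group. Spinkl, listed as a seminal vesicle marker, had a similar course (6324 and 18.3 CPM against 0.841, 0.157 and 1.15 CPM). The prostate sum of control replicate 1 can therefore not be assigned to prostate alone. The summed level of 9 seminal vesicle markers was 725163 and 18567 CPM in the control pair, and 274346, 341369.7 and 8847 CPM in the deletion group. The groups overlapped for Svs2, Svs5 and Pate4, which made up nearly all of that sum in the deletion libraries. The other 6 markers were lower in the deletion libraries without overlap, against 10.2% of all genes tested. Svs1, one of them, stood at 78234 and 170.7 CPM against 6.20, 0.0626 and 9.63 CPM. The summed level of 7 vas deferens and epididymis markers was 6.20 and 1602 CPM against 5149, 4359 and 34.3 CPM, nearly all of it Akr1b7 and Crisp1, with Lcn9 at 0. These marker sums thus differed within both groups, and deletion replicate 3 lay far below the other deletion libraries in the seminal vesicle and vas deferens sums. Whether the sums reflect tissue content was not tested. Markers of some other cell types also separated the groups, where 10.2% of all genes tested were lower without overlap. Lower without overlap were 6 of 6 endothelial, 7 of 8 macrophage, 5 of 8 fibroblast and 8 of 8 cycling cell genes. So were 3 of 6 T cell, 2 of 4 basal, 2 of 5 red blood cell, 2 of 6 tested prostate and 1 of 6 luminal genes. No tested smooth muscle, adipocyte, neutrophil, nerve or urothelium gene was. The sums were 72.6 and 85.0 CPM against 39.7, 25.6 and 40.3 CPM for endothelium and 75.6 and 114 CPM against 51.3, 50.6 and 56.0 CPM for macrophages. For fibroblasts they were 345 and 542 CPM against 258, 81.3 and 219 CPM. Of 8 tested skeletal muscle genes all had a log2 fold change above 0, though that of Acta1 was only 0.05. In 4 of them the deletion libraries were higher without overlap, against 9.43% of all genes tested. The sum of the list was 42.1 and 85.0 CPM against 355, 773 and 335 CPM. It was mostly Acta1 in control replicate 1 (32.3 CPM) and mostly Ttn in the other libraries. The part of these cell types in the members' group differences was not tested. In bulk tissue, fewer cells of a type and less RNA per cell cannot be told apart.

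Of the 39 members, 37 passed the filter on low counts. Slc2a5, a fructose carrier, had no count in either control and 3, 4 and 1 counts in the deletion group, and Hk3, a hexokinase of blood cells, had 17 and 2 against 5, 6 and 8. Among the 37, 21 log2 fold changes (deletion minus control) were above 0 and 16 below 0, with a median of 0.02 against 0.00 over the 18615 genes tested. No member had an adjusted p under 0.05 in edgeR's quasi-likelihood test or in limma-voom, where 0.0% of all genes did. At an unadjusted p under 0.05 in edgeR stood 3 members, against 4.92% of all genes: Pfkfb3 and Pdk4 higher (1.69% of all genes) and Slc16a3 lower (3.23%). DESeq2 called Pfkfb3 alone among the members, against 0.899% of the genes it tested (0.197% higher and 0.702% lower). The groups did not overlap for 5 members (13.5%), against 19.6% of all genes: Pfkfb3, Tigar, Ldhb and G6pdx lay higher (9.43% of all genes did) and Pfkfb1 lower (10.2%) in the deletion libraries.

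**Figure D1:**
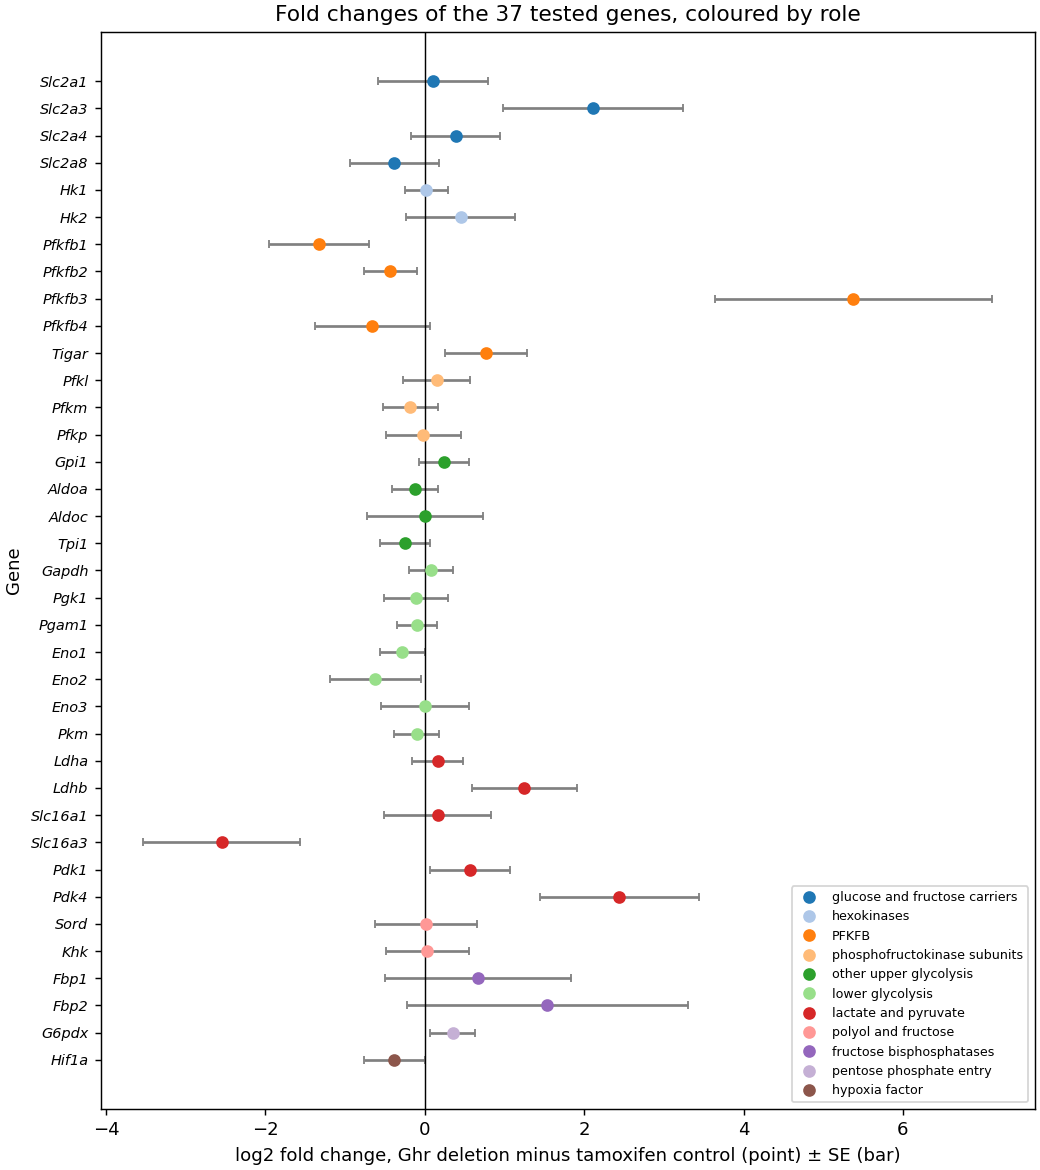
Log2 fold change (deletion minus control) of the 37 members past the low-count filter, from edgeR, with the SE as error bars and members ordered and coloured by role. Pfkfb3 lies at 5.38, Pdk4 at 2.44 and Slc2a3 at 2.11, Slc16a3 lies at -2.55 at the other end, and the chain enzymes lie near 0.

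Pfkfb3, whose product is the PFKFB form with the strongest kinase over phosphatase activity, had the widest range of all members. Its level was 20.0 and 51.8 CPM in control replicates 1 and 2 and 3638, 794 and 62.2 CPM in deletion replicates 1, 2 and 3, from 467, 1071, 103788, 25336 and 3351 counts. Deletion replicates 1 and 2 were far above the other libraries, and deletion replicate 3 was close to control replicate 2. The means were 35.9 ± 22.5 CPM (SD, n = 2) and 1498 ± 1889 CPM (SD, n = 3), and the log2 fold change was 5.38 (SE 1.74). Without deletion replicate 1 it was 3.60, and without control replicate 2 it was 6.23. The ratio of the highest to the lowest library was 182, which exceeded that of 99.6% of the tested genes with a count in every library. The 2 deletion libraries with high Pfkfb3 were also those with the highest vas deferens and epididymis markers: Akr1b7 stood at 3484 and 3250 CPM there and at 9.26 CPM in deletion replicate 3. Control replicate 2, however, held Akr1b7 at 890.5 CPM with Pfkfb3 at 51.8 CPM. The part of tissue content in the Pfkfb3 values was not tested.

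Pfkfb3 (ENSMUSG00000026773) lies on chromosome 2 at 11471433 to 11554077 on the minus strand of GRCm38 (GENCODE M21), and no other annotated gene shared at least 20% of its 30-base words with it. Inside it lie 2 short gene models, each with 233 counts over the 5 libraries against 134013 for Pfkfb3. Gm10851 on the opposite strand stood at 0.299 and 0.533 CPM in the control pair, and at 4.35, 1.22 and 0.965 CPM in the deletion group. Gm37975 on the same strand stood at 0.0428 and 0.629 CPM against 3.86, 1.88 and 0.909 CPM. Both were highest in deletion replicate 1, as Pfkfb3 was, and since the strand setting of the counting is not given, reads of Pfkfb3 and of these models cannot be told apart. The nearest coding neighbours did not have that range: Rbm17, 31360 bases away, held 31.0 to 54.5 CPM and Prkcq, 170211 bases away, 2.40 to 11.8 CPM over the 5 libraries. Prkcq was higher in the deletion libraries without overlap, as 9.43% of all genes tested were (2.40 and 5.13 CPM against 5.92, 11.8 and 6.29 CPM).

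Pfkfb3, Pdk4, Ldhb and Slc16a3 were among the members that ranged widely between libraries. Their start regions are printed because hypoxia factors and STAT5, which acts below the growth hormone receptor, bind known short motifs. Each is the 250 bases upstream of a RefSeq start (GRCm38.p6), read 5′ to 3′ on the gene's strand and ending next to the start, with the hypoxia core in capitals (ACGTG or GCGTG on either strand, so CACGT and CACGC are marked too). Pfkfb3 has a start far upstream (chr2:11553930-11554179) and one nearer to the body of the gene (chr2:11502091-11502340), and Pdk4 (chr6:5496279-5496528), Ldhb (chr6:142507958-142508207) and Slc16a3 (chr11:120948817-120949066, plus strand, the others minus) have one start each in the table.
Pfkfb3, upstream start: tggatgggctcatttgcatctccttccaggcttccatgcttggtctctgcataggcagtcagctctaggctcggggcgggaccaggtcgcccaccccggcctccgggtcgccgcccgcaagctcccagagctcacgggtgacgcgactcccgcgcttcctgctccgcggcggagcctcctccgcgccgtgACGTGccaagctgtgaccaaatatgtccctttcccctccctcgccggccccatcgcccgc
Pfkfb3, inner start: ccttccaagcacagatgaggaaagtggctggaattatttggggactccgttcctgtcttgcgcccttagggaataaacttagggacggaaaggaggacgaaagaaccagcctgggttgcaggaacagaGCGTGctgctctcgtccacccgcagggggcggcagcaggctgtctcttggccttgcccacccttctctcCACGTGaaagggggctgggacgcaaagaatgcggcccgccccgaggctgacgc
Pdk4: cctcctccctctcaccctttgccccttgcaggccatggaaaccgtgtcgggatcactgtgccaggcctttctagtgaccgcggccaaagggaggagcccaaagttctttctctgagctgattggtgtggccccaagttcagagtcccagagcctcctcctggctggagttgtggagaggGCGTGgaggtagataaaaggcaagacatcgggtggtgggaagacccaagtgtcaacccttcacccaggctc
Ldhb: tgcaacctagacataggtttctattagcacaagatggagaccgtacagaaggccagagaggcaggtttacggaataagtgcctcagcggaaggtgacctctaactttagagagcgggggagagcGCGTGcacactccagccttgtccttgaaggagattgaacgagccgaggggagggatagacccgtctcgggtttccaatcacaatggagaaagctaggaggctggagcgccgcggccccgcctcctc
Slc16a3: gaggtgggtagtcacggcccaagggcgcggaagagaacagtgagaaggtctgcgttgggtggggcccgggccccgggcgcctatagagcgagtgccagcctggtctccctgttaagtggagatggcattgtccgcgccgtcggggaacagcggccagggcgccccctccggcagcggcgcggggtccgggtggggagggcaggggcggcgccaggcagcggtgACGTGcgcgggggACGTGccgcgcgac
The upstream Pfkfb3 start had 1 core, 60 bases before the start. The inner one had 3 matches, of which the pair at 53 and 52 bases before the start overlap in the palindrome CACGTG. Pdk4 and Ldhb had 1 core each and Slc16a3 had 2. A core was present in 40 of 55 start regions of the members (72.7%) and in 12679 of all 32851 regions of this length (38.6%). Every form of the core holds the letters CG, and the regions were not matched for base make-up. The difference in shares can therefore not be read as an excess of hypoxia sites. A core stood in at least 1 start region of 30 of the 37 members found in the table. Among them were members whose log2 fold changes lay near 0, such as Gapdh and Hk1. The start region of Fbp1, which is not printed, held no core. Its ratio of the highest to the lowest library (27.1) exceeded those of Pdk4 (21.6), Slc16a3 (17.3) and Ldhb (8.47). The STAT5 motif TTCNNNGAA, which reads the same on both strands, was present in 2 member regions (3.64%), against 7.02% of all regions, and in none of the 5 printed. Slc2a3 and Slc2a4 were not matched.

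The other PFKFB genes did not share the range of Pfkfb3. Pfkfb2, the heart form, stood at 71.6 and 38.0 CPM in the control pair, and at 40.9, 40.5 and 40.4 CPM in the deletion group. Pfkfb4 stood at 32.8 and 10.2 CPM against 25.8, 7.20 and 7.87 CPM. Control replicate 1 was the highest library for both, and the groups overlapped. Pfkfb1, the liver form, stood at 1.88 and 0.968 CPM against 0.456, 0.470 and 0.761 CPM. Its log2 fold change was -1.33 (SE 0.63) and its groups did not overlap, on 13 to 44 counts per library. Pfkfb1 overlaps Apex2 on the opposite strand, which held 1501.75 counts over the 5 libraries against 133 for Pfkfb1. On deposited TPM (log2 of TPM + 1) the log2 fold change of Pfkfb1 was 0.04, where the median over all genes was 0.54. Tigar, the phosphatase that lowers fructose 2,6-bisphosphate, stood at 1.45 and 2.66 CPM in the control pair, and at 3.33, 2.98 and 4.23 CPM in the deletion group. The 3 deletion libraries were higher by little: the gap between control replicate 2 and deletion replicate 2 was smaller than the spread within either group, and the log2 fold change was 0.77 (SE 0.51), or 0.40 without control replicate 1.

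**Figure D2:**
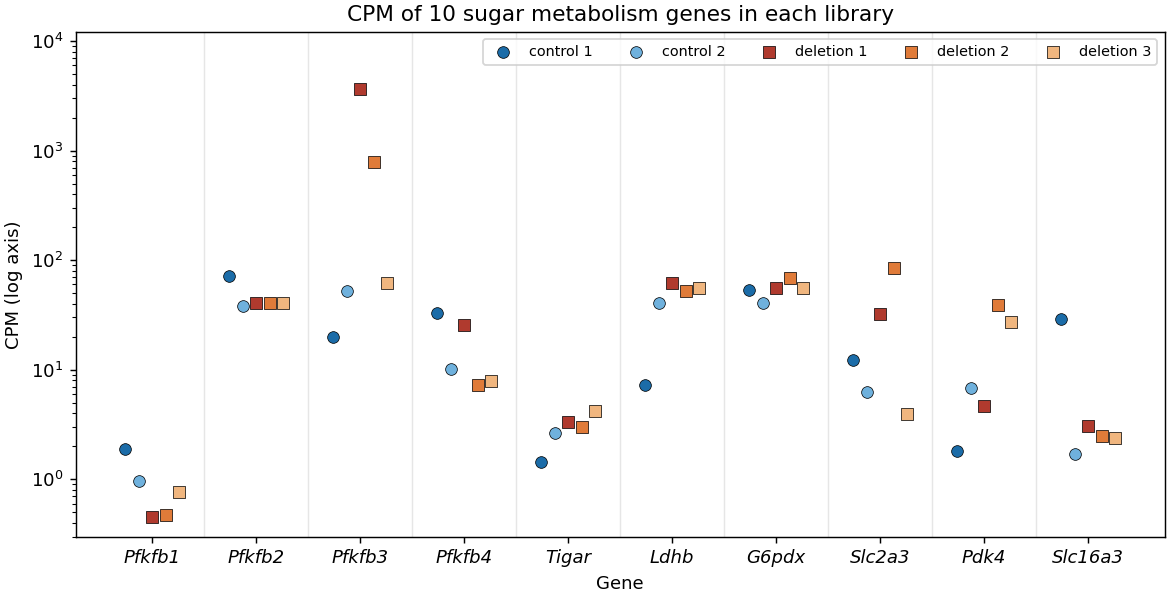
Level of 10 members in each library, as TMM-scaled CPM on a log axis, with circles for single control libraries and squares for single deletion libraries. Pfkfb3 reaches 3638 and 794 CPM in 2 deletion libraries and lies between 20.0 and 62.2 CPM in the other 3, while Pfkfb2 stays between 38.0 and 71.6 CPM.

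Within a library, the make-up of the PFKFB transcripts can be read per length. Pfkfb2 led in control replicate 1 with 58.2% of the summed TPM of the 4 genes, and Pfkfb3 held 12.9%. In control replicate 2 and deletion replicate 3 the shares were close to each other: Pfkfb3 held 50.7% and 56.1%, and Pfkfb2 35.3% and 34.5%. In deletion replicates 1 and 2 Pfkfb3 held 98.0% and 94.3%. So Pfkfb3 was the leading form in 4 of 5 libraries, and its share was nearly the whole where its own level was high.

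**Figure D3:**
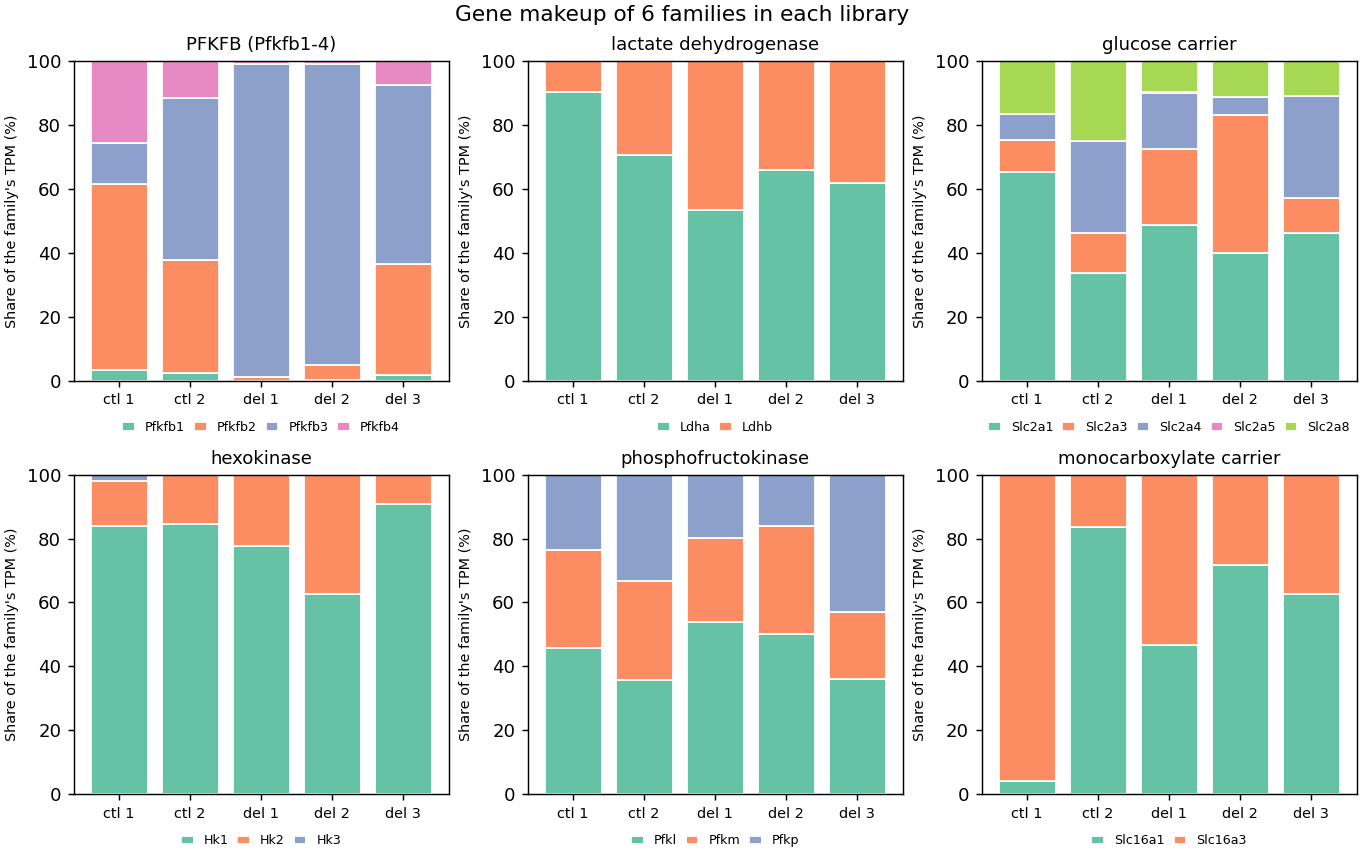
Share of the summed TPM of 6 gene families held by each gene, in percent, as 1 stacked bar per library (ctl, control, and del, deletion, with the replicate number). Pfkfb3 takes 98.0% and 94.3% of the PFKFB bars of deletion replicates 1 and 2, and Ldhb takes 9.71% of the lactate dehydrogenase bar in control replicate 1 against 29.4% to 46.7% elsewhere.

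Sugar carriers and hexokinases bring glucose in and trap it. Slc2a1, the widespread glucose carrier, ranged from 15.6 to 58.9 CPM with control replicate 2 and deletion replicate 3 both low. Slc2a3, the high-affinity carrier of neurons and some tumours, stood at 12.2 and 6.29 CPM in the control pair, and at 32.0, 84.4 and 3.99 CPM in the deletion group. It was named after its values were seen, and its groups overlapped because deletion replicate 3 was the lowest library (log2 fold change 2.11, SE 1.13, and 0.95 without deletion replicate 2). Slc2a3 and Pfkfb3 were both high in deletion replicates 1 and 2, in opposite order. Slc2a4, the insulin-regulated carrier of muscle and fat, ranged from 5.30 to 16.7 CPM, and Slc2a8, an intracellular carrier, from 3.25 to 11.4 CPM. Slc2a1 held the largest share of the summed TPM of these carriers in 4 of 5 libraries, and Slc2a3 did in deletion replicate 2 (43.2% against 40.0%). Hk1, the constitutive hexokinase, was level at 56.2 to 75.3 CPM and made up 62.8% to 90.9% of hexokinase TPM. Hk2, the inducible form, ranged from 9.09 to 51.9 CPM, with both ends among the deletion libraries, and its share ran from 8.91% in deletion replicate 3 to 37.0% in deletion replicate 2.

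The enzymes of the glycolytic chain were among the most even members. Gapdh, which oxidises glyceraldehyde phosphate, stood at 172.5 and 128.7 CPM in the control pair, and at 164, 153 and 159.6 CPM in the deletion group. Aldoa, the main aldolase, stood at 215 and 155 CPM against 163, 182 and 167 CPM. Pkm, the pyruvate kinase of most tissues, stood at 194 and 208 CPM against 166, 180.1 and 216 CPM. For these 3 genes the difference between the group means was smaller than the larger of the group SDs. Gpi1, the isomerase at the head of the chain, stood at 121 and 103 CPM against 132, 164 and 99.5 CPM. Tpi1, triose phosphate isomerase, stood at 133 and 84.4 CPM against 96.8, 101 and 75.3 CPM. Pgk1, an enzyme that forms ATP, stood at 132 and 88.4 CPM against 101, 141 and 64.1 CPM. The groups of all 3 overlapped, with deletion replicate 3 the lowest library for each. Over 12 chain genes (Gpi1, Pfkl, Pfkm, Pfkp, Aldoa, Tpi1, Gapdh, Pgk1, Pgam1, Eno1, Pkm and Ldha, grouped after their values were seen) log2 fold changes ran from -0.28 (SE 0.28) for Eno1 to 0.24 (SE 0.31) for Gpi1. Their summed level was 1252 and 1042 CPM in the control pair, and 1093, 1208 and 1066 CPM in the deletion group. The median ratio of the highest to the lowest library was 1.63 for the 12, against 1.86 over 5467 tested genes with mean CPM in the same range and 2.51 over all 17750 tested genes with a count in every library. Gapdh is the one chain gene with many near copies in the genome: 102 other annotated genes shared at least 20% of their 30-base words with it and held 13.7% of the joint counts, and for Eno1 4 such genes held 5.24%.

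**Figure D4:**
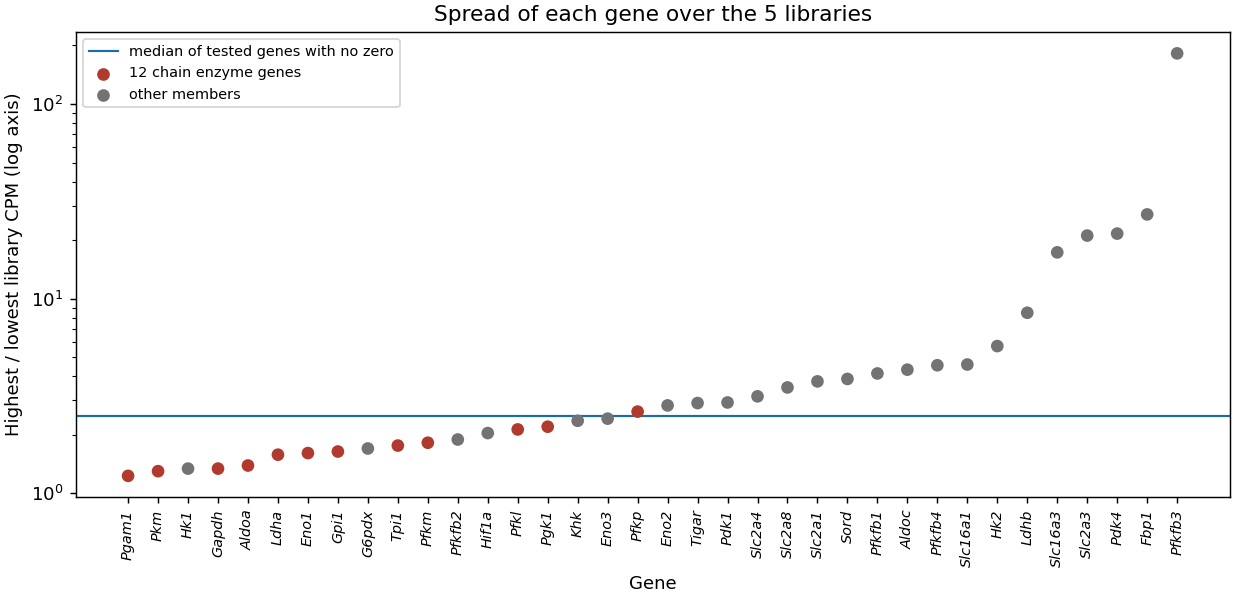
Ratio of the highest to the lowest library (CPM, log axis) for the members with a count in every library, beside the median over all tested genes with a count in every library (line). The 12 chain enzymes lie between 1.23 and 2.63, below or near the all-gene median of 2.51, and Pfkfb3 lies at 182.

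Isoform shares within the chain varied between libraries of the same group. Of the phosphofructokinase subunits, the liver form Pfkl held the largest share of TPM in 4 of 5 libraries (35.6% to 53.8%), and the platelet form Pfkp led in deletion replicate 3 with 43.1%. The muscle form Pfkm held 20.9% to 33.7%. Aldoa made up 91.9% to 98.4% of aldolase TPM, and the brain form Aldoc the rest, at 3.64 to 15.7 CPM. Eno1 made up 67.2% to 85.5% of enolase TPM and the muscle form Eno3 11.5% to 30.9%. Eno2, the neuronal form, stayed between 1.32 and 3.73 CPM, and Pgam1 between 46.2 and 56.6 CPM.

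At the end of the chain, Ldha, the form that favours lactate, stood at 83.6 and 119.8 CPM in the control pair, and at 87.5, 132 and 122 CPM in the deletion group, and its groups overlapped. Ldhb, the form that favours pyruvate, stood at 7.32 and 40.3 CPM against 62.0, 52.2 and 55.6 CPM. The deletion libraries were close together (56.6 ± 4.94 CPM, SD, n = 3) and the controls far apart (23.8 ± 23.3 CPM, SD, n = 2). The log2 fold change of Ldhb was 1.25 (SE 0.66), 0.49 without control replicate 1 and 2.95 without control replicate 2. Ldhb held 9.71% of lactate dehydrogenase TPM in control replicate 1, 29.4% in control replicate 2 and 34.0% to 46.7% in the deletion libraries.

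Lactate carriers and pyruvate dehydrogenase kinases, named here after their values were seen, were uneven. Slc16a3, the lactate exporter of glycolytic cells, stood at 29.3 and 1.69 CPM in the control pair, and at 3.05, 2.47 and 2.41 CPM in the deletion group. Its log2 fold change of -2.55 (SE 0.98) rested on control replicate 1: without that library it was 0.64. Control replicate 1 was also the library with the highest sum over 8 markers of cycling cells (234 CPM, against 45.0 in control replicate 2 and 6.73, 11.4 and 5.09 in the deletion libraries). It also had the highest sums of the seminal vesicle markers and of the prostate list. The latter was nearly all Spink1 there, which had a course similar to that of the seminal vesicle marker Spinkl. The part of these cells and tissues in the Slc16a3 value was not tested. Slc16a1, the other widespread lactate carrier, ranged from 2.44 CPM in control replicate 1 to 11.2 CPM in control replicate 2. Slc16a3 accordingly held 95.9% of the TPM of the pair in control replicate 1 and 16.5% to 53.4% in the other libraries. Pdk4, the kinase that shuts pyruvate dehydrogenase during fasting, stood at 1.80 and 6.87 CPM against 4.63, 38.8 and 27.3 CPM (log2 fold change 2.44, SE 1.00). Deletion replicates 2 and 3 were high and deletion replicate 1 lay between the controls. Over 7 adipocyte markers, of which 6 were tested and all 6 lay higher in the deletion group with overlap, the sum was 19.2 and 44.9 CPM against 70.3, 70.8 and 79.2 CPM. Most of the sum was Plin4 except in deletion replicate 2 (18.5 and 37.5 CPM against 67.9, 33.0 and 46.1 CPM), and in deletion replicate 1 nearly all of it was. Fabp4, one of them, stood at 0.685 and 4.02 CPM against 1.40, 32.7 and 28.8 CPM, high in the same 2 libraries as Pdk4, with Adipoq at 2.04 CPM or less and Lep at 0.0350 CPM or less everywhere. The part of fat cells in the Pdk4 values was not tested. Pdk1, the kinase induced by hypoxia, ranged from 39.7 to 116 CPM.

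Sord was the member of highest mean TPM (202), next to Pfkfb3 (200.2), whose mean came mostly from deletion replicate 1. Sord stood at 587 and 580.4 CPM in the control pair, and at 293, 1135 and 337 CPM in the deletion group. The controls lay between the deletion libraries, and the log2 fold change was 0.01 (SE 0.64). Khk, which phosphorylates fructose, stood at 7.14 and 4.45 CPM against 6.76, 7.71 and 3.27 CPM, with overlapping groups. The gluconeogenic bisphosphatases were low: Fbp1 ranged from 0.140 to 3.81 CPM and Fbp2, the muscle form, had 1 and 5 counts against 0, 4 and 58. Both were highest in deletion replicate 3. G6pdx, which opens the pentose phosphate pathway, stood at 53.8 and 40.5 CPM in the control pair, and at 55.4, 68.6 and 56.0 CPM in the deletion group. Its groups did not overlap, although deletion replicate 1 exceeded control replicate 1 by less than the spread within either group (log2 fold change 0.35, SE 0.28, and 0.15 without control replicate 2), and Ikbkg, which overlaps it on the opposite strand, held almost as many counts (8655 against 8881).

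Hif1a, the oxygen-regulated factor that drives many of these genes, stood at 184.6 and 92.3 CPM in the control pair, and at 96.1, 132 and 90.3 CPM in the deletion group, with control replicate 1 highest and overlapping groups (log2 fold change -0.38, SE 0.38). Its activity is set mainly by protein turnover, which RNA does not show.

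Around the members, 150 further genes in 11 lists were counted. Of these 136 were tested, 77 above 0 and 59 below 0 with a median of 0.08, and none had an adjusted p under 0.05 in edgeR. At an unadjusted p under 0.05 stood 4 higher and 4 lower genes, where 1.69% of all genes were higher and 3.23% lower, and the groups did not overlap for 28 (20.6%, against 19.6% of all genes). Both are near the shares over all genes. The genes named next were picked for their small unadjusted p in this same contrast, so they only describe the lists. Among 10 hypoxia factors and their regulators, Arnt2, a partner of the hypoxia factors, stood at 2.52 and 8.52 CPM in the control pair, and at 27.4, 47.7 and 26.7 CPM in the deletion group. All 3 deletion libraries lay above both controls. The log2 fold change was 2.62 (SE 0.62), with an adjusted p of 0.985 in edgeR and 0.00765 in DESeq2, which called no other gene of the lists. Of 18 hypoxia-induced genes outside sugar metabolism, 1 higher and 1 lower gene reached an unadjusted p under 0.05. They were Bnip3, a mitophagy receptor, at 11.7 and 23.1 CPM against 46.5, 73.8 and 26.0 CPM, and Vegfa, the vessel growth factor, at 102 and 26.7 CPM against 19.8, 26.2 and 21.3 CPM. Vegfa was set apart by control replicate 1, and control replicate 2 lay only just above the highest deletion library.

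The other lists were alike in having 0 or 1 such gene each. In pyruvate entry to mitochondria (12 tested, 9 above 0) it was Pdp1, the phosphatase that switches pyruvate dehydrogenase on, at 114 and 15.4 CPM against 6.87, 5.73 and 18.7 CPM. In glycogen metabolism (20 tested, 14 above 0) it was Gbe1, the branching enzyme, at 17.5 and 35.4 CPM against 51.6, 96.0 and 38.8 CPM. Among other regulators of sugar use (14 tested, 9 above 0) it was Prkab1, a subunit of the energy sensor AMPK, at 21.9 and 18.2 CPM against 46.6, 103 and 32.7 CPM. The Gbe1 and Prkab1 groups did not overlap, with deletion replicate 2 highest for both, whereas Pdp1 overlapped and was set apart by control replicate 1. In other glycolysis enzymes (10 tested, 8 below 0) it was Minpp1, at 27.9 and 7.31 CPM against 3.89, 5.48 and 4.62 CPM. In polyol, fructose, galactose and mannose metabolism (13 tested, 8 below 0) it was Gmds, which starts GDP-fucose synthesis, at 30.6 and 22.8 CPM against 11.9, 13.7 and 19.1 CPM. None was counted in the pentose phosphate list (10 tested, 5 above 0), gluconeogenesis (8 tested, 4 above 0), hexosamine synthesis (9 tested, 5 above 0) or other sugar and monocarboxylate carriers (12 tested, 6 above 0). These lists were assembled with earlier results on the same libraries known.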

How the data were processed

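TruSeq Stranded Total RNA libraries were made from flash-frozen tissue (2 tamoxifen control mice, 3 Ghr deletion mice), as the labels' protocols state. RSEM 1.3.0, STAR 2.5.3a, bcl2fastq 2.20.422 and GRCm38 are listed in the submitters' processing notes. The strand setting and annotation release are not given there. Per the file headers, the authors deposited RSEM expected counts, not normalized, and TPM, relative to gene length and library, for 51912 gene IDs, 279 of them without a symbol in the name table used.

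Expected counts were rounded and tested between groups in R 4.3.3 by edgeR's quasi-likelihood F-test (version 4.0.16, with limma 3.58.1), after filterByExpr and TMM, with robust dispersions and no covariate, Benjamini-Hochberg adjusted over 18615 genes at 0.05. DESeq2 1.42.0, limma-voom, other scalings and filters, deposited TPM and leaving libraries out were alternatives. The SE follows from the F statistic, or from the fitted weights for log2 fold changes within 0.05 of 0. TMM factors ranged from 0.491 to 1.61, and 3 counts, the floor, stood for 0.0557 to 0.145 CPM. The common biological coefficient of variation was 0.52, so spread between mice limits precision more than counting. TPM served for shares within a library, for ranking members by their mean and for 1 alternative test between groups; they depend on all other genes of a library.

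Members and lists were chosen with earlier results of these data known. Values in every library were given for members whose groups do not overlap, the 10 of highest mean TPM, the 4 Pfkfb genes, Sord, Khk, Hif1a and Tigar, and, outside the members, for at most 3 genes a list, those of smallest p with a mean of at least 1 CPM. They were also given for the low-count members Slc2a5, Hk3 and Fbp2, and for genes chosen after their values were seen. Among the latter were the members Slc2a3, Slc16a3 and Pdk4, and Bpgm, Txnip, Emb and Akr1b3 outside the members. Positions and near copies are from GENCODE M21 and start regions from RefSeq (GRCm38.p6), which matched 37 of 39 members.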

Additional observations from a re-analysis of the deposited data

How the results depend on the processing

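Of the members, G6pdx, Gpi1, Ldhb, Pdk4, Pfkfb3, Slc2a3 and Tigar kept the same sign in all 14 alternatives, and Fbp2 did in the 11 that gave it a value (it was below the filter wherever deletion replicate 3 was left out), while Pfkfb3 ranged from 3.60 to 6.23 on the log2 scale with an adjusted p under 0.05 in 2 of them. The members of constant sign all lay above 0, the direction in which total counts and TPM shifted the median of all genes. Pfkfb1 (-1.33) and Eno2 (-0.62) changed sign in 1 alternative each, to 0.04. The count of members called was 0 in edgeR and 1 (Pfkfb3) with DESeq2 and with scaling to total counts only. Over all genes it was 0 in edgeR, 164 with DESeq2, 46 with total counts only, 11 with limma on log2(TPM + 1), 0 to 48 with 1 library left out (48 if that is control replicate 2, and 2 if it is deletion replicate 3) and 85 when control replicate 1 and deletion replicate 3 were both left out. Where a control was left out, the lone control was assumed to vary like the deletion libraries, so those counts rest on the spread of 1 group. Total counts and TPM moved the median of all genes by 0.23 and 0.54 (log2). The members' median of 0.02 became 0.26 and 0.87 there, -0.07 to 0.20 with 1 library left out (0.20 without control replicate 1) and 0.27 without both. The members whose groups did not overlap were 5 (13.5%, against 19.6% of all genes), and 1 with total counts (2.70% against 7.87%), 3 with TPM (8.11% against 5.68%), 7 to 21 with 1 library left out (7, or 18.9% against 30.3%, without deletion replicate 2, and 15, or 40.5% against 43.2%, and 21, or 55.3% against 56.2%, without control replicate 1 and 2) and 27 without both (75.0% against 67.8%). Fewer libraries make overlap less likely by construction, and for the other shifts the cause was not tested. With the replicate block, which uses the 4 libraries of shared number, 2 genes were called over all genes, 10 members did not overlap (27.8%, against 35.4% of all genes) and the members' median was 0.05. The same 4 libraries without the block also gave 2 calls. Deviations of control replicate 1 and deletion replicate 1 correlated at -0.00242, and the 2 numbers are not known to mark a pairing. Counts were low for Slc2a5, Hk3, Fbp2 and Pfkfb1, and the other members were read with 2 and 3 libraries per group.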

Other observations

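A few genes next to the members in metabolism, chosen after their values were seen, had wide ranges within a group. Bpgm, which makes the red cell regulator 2,3-bisphosphoglycerate, reached 973 CPM in the first control and 1189.6 CPM in deletion replicate 1, and stood at 30.8, 72.1 and 23.7 CPM in control replicate 2 and deletion replicates 2 and 3. The summed level of 5 red blood cell markers was 18.2 and 10.7 CPM in the control pair, and 10.7, 1.35 and 4.40 CPM in the deletion group, and within each group it too was highest in the library with high Bpgm. The part of red cells in the Bpgm values was not tested. Emb, a partner protein of lactate carriers, stood at 7.40 and 252 CPM in the control pair, and at 89.6, 136 and 225 CPM in the deletion group, lowest in control replicate 1 as Slc16a1 was. Bsg, the other such partner, was even at 122 to 179 CPM.

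Txnip, a brake on glucose uptake, stood at 597 and 555 CPM against 406, 2134 and 769 CPM, highest in deletion replicate 2. Slc2a3, Hk2, Pdk1, Pdk4 and Sord were highest there too, but so were Gpi1, Pgk1, Ldha, G6pdx, Eno3, Khk and Slc2a8. Akr1b3, the aldose reductase that feeds sorbitol to Sord, stood at 487 and 190.5 CPM against 232, 203 and 331 CPM and was not highest in that library.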
